A study of Mus musculus with 6 samples.

Results

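Potassium channel genes were examined in the spinal cord of mice in which human pancreatic cancer cells had been placed in a nerve. The members were all probe sets whose platform annotation gave a single gene symbol beginning with Kcn, with Kcnj13 left out. They were 166 of 45037 probe sets on the array and stood for 83 of 18193 named genes. The symbol is a naming rule, so the set held pore-forming channel subunits, 15 genes of auxiliary subunits that form no pore, and 3 genes of non-coding RNAs named after a neighbouring channel gene. Intensities of 101 of these probe sets, for 58 genes, had a mean over the 6 arrays above the filter at 155.2, and a gene was represented by its brightest probe set.

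The tissue was lumbar spinal cord, segment L1. All mice were male and carried the SCID immunodeficiency, which leaves them without functional T and B cells, and were 15 weeks old, 6 weeks after an injection at 9 weeks. In the N-inv group (neural invasion, 2 arrays), the left sciatic nerve had been injected with Capan-1, an established cell line from a human pancreatic cancer. The controls were a subcutaneous model, the SC group (2 arrays), and a PBS model, the PBS group (2 arrays). The labels do not say which side of the cord was taken, or whether replicate arrays were of separate mice, so the p-values measure only the spread between these samples, which may be technical.

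Potassium channels let potassium leave a cell and thereby set its resting potential, end its action potentials and limit how often it fires. Voltage-gated channels are built of 4 pore-forming subunits and open when the membrane is depolarised. Inward rectifiers and 2-pore leak channels hold the membrane near rest, and in astrocytes the inward rectifier Kcnj10 takes up the potassium that active neurons release. In spinal cord and sensory neurons, loss of potassium channel expression after nerve injury is a well-known accompaniment of hyperexcitability and pain. A probe set reports RNA and not current, and in a bulk sample fewer cells of a type cannot be told apart from less RNA per cell.

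Promoter sequences are shown for 3 members. Kcnip3 is shown because it had the widest separation of arrays among the members, and the inward rectifiers Kcnj9 and Kcnj10 because they are neighbours in the genome and differ in the cells that use them. Each is the 150 bases before a RefSeq transcription start, read 5′ to 3′ on the strand of the gene, from assembly GRCm38.p6. Capitals mark CG dinucleotides, the sites of DNA methylation that cluster in CpG-rich promoters.
Kcnip3 start 1, chr2:127522095-127522244, minus strand: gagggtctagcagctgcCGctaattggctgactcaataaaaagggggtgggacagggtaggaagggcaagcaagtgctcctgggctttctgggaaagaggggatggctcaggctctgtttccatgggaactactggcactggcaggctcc
Kcnip3 start 2, chr2:127521393-127521542, minus strand: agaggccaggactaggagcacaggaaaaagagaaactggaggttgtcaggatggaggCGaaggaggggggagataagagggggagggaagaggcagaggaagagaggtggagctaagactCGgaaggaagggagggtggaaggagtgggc
Kcnip3 start 3, chr2:127482500-127482649, minus strand: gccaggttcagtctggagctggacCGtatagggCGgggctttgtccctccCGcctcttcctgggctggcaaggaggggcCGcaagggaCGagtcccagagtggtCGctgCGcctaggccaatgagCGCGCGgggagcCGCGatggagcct
Kcnj9, chr1:172329323-172329472, minus strand: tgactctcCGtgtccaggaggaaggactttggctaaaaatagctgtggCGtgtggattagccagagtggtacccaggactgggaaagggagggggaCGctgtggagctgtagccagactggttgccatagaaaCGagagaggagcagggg
Kcnj10, chr1:172341060-172341209, plus strand: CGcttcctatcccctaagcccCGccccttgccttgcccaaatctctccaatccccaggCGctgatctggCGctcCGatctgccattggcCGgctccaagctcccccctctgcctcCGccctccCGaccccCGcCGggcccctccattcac
The first and second Kcnip3 starts lie 702 bases apart and the third lies a further 38893 bases downstream. The windows before the first and second starts hold 1 and 2 CG dinucleotides, whereas the window before the third holds 12. At least as many CGs occur in 85.7%, 70.7% and 23.1% of the 32851 windows of that length in the RefSeq promoter table, counted for the 3 starts in that order. Kcnj9 and Kcnj10 run away from each other from starts 11888 bases apart. The Kcnj9 window holds 4 CGs, a number that 51.3% of all windows reach, and the Kcnj10 window holds 10, which 28.8% reach. The arrays do not say which start was used, and nothing is drawn from these letters about either gene's regulation.

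The groups were first checked as samples. Correlations of log2 intensity between arrays lay between 0.963 and 0.983, and the lowest was between the SC arrays. The SC replicate 2 array goes against its label: Xist, transcribed from the inactive X chromosome of females, had an intensity of 13042 there and 138.3 to 228.1 on the other 5 arrays, although all mice are labelled male. The main counts and the larger differences that rest on the SC arrays are therefore also given without that array. SC replicate 2 also had the highest ratio of 3′ to 5′ signal for Actb, 4.70, against 3.05 to 3.81 on the others. For Gapdh it did not stand apart, at 3.38 against 2.82 to 3.52 on the others. Of the neuronal markers 8 of 8 lay above the filter, as did 8 of 8 astrocyte and 7 of 7 oligodendrocyte markers, while 0 of 4 sensory neuron markers did. Oligodendrocyte markers were lower in SC than in PBS in 5 of 7, with a median of -0.41. The arrays did not overlap in those 5, an arrangement found in 19.8% of all named genes. Of the 5, Mog, Mag, Cnp and Ugt8a were lower on SC replicate 2 than on SC replicate 1, and Cldn11 was not. Neutrophil markers, 6 of 6 above the filter, summed to 1358 and 1442 in N-inv, 2939 and 6543 in SC, and 2970 and 865 in PBS. Their median log2 difference was -1.96 for N-inv against SC. Of these sums, Lcn2 made up 795.9 and 853.1 in N-inv, 734.9 and 2525.5 in SC, and 217.3 and 135.0 in PBS. Against PBS, N-inv was higher for Lcn2, at 2.10, and lower for the other 5. Neither marker median was computed without SC replicate 2. The part of these cells in the Kcn values was not tested.

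The SC arrays also differed most from each other in the potassium channel genes. The median absolute log2 difference between the arrays of a group was 0.14 in N-inv, 0.32 in SC and 0.15 in PBS over the 58 Kcn genes, close to the 0.14, 0.29 and 0.15 over all named genes. In SC, 44 of the 58 were higher on replicate 2 than on replicate 1, which is 75.9%, against 69.1% of all 12626 named genes. Of the 58, 22 had their highest value on SC replicate 2 and 23 had their lowest on SC replicate 1. These are 37.9% and 39.7% of the Kcn genes, against 34.4% and 39.6% of all named genes. The wide spread between the SC arrays was thus shared with the transcriptome at large.

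**Figure D1:**
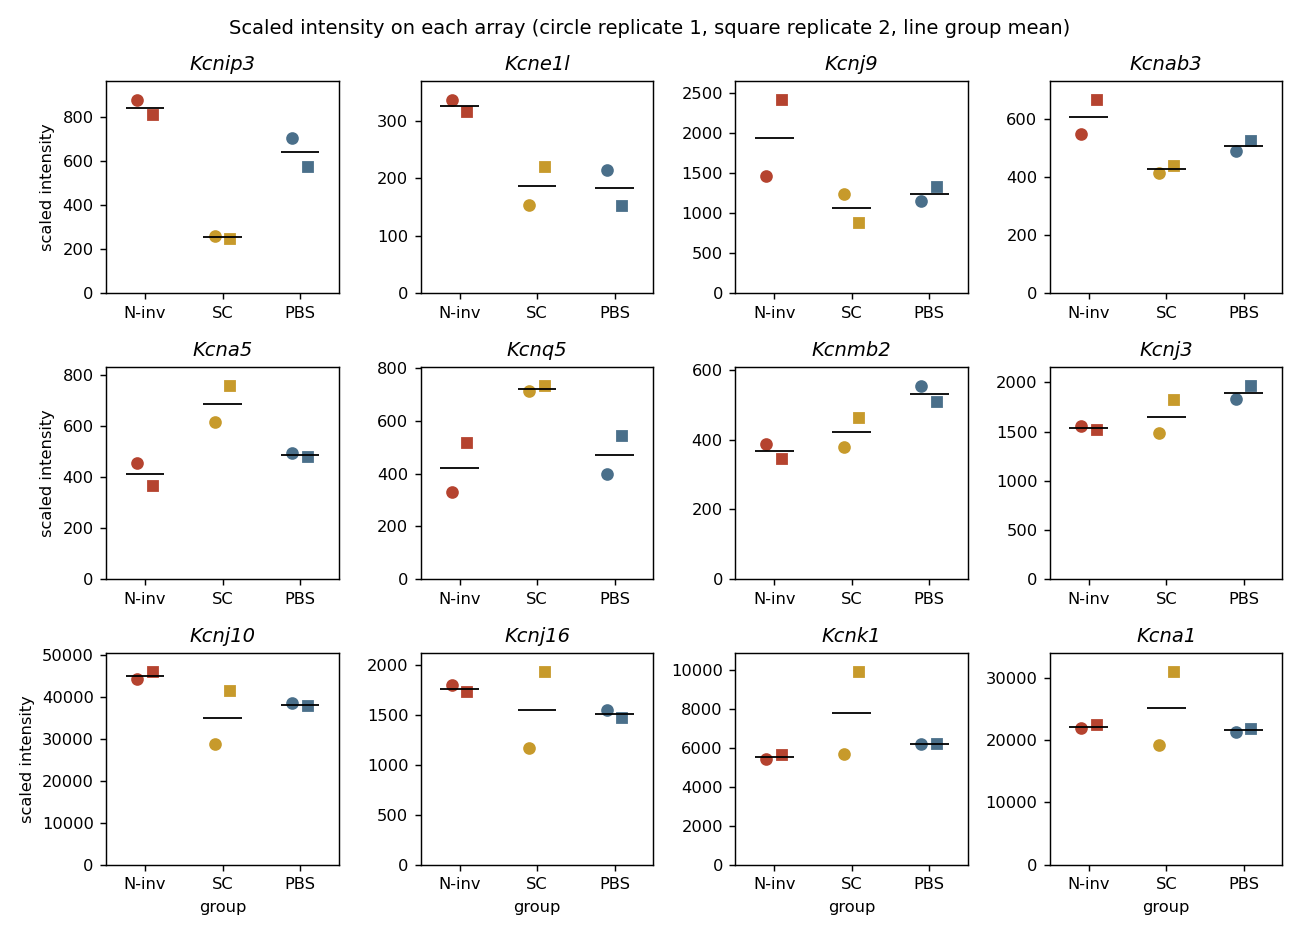
Scaled intensity of 12 Kcn genes on each of the 6 arrays, on linear axes from zero, with N-inv left, SC middle and PBS right. Each point is 1 array (circle replicate 1, square replicate 2) and each line is a group mean. Kcnip3 lies at 257.6 and 247.9 on the SC arrays and at 570.8 or above on the other 4.

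Nerve-injected mice were set against PBS mice to ask which channel genes differ in the cord segment when tumour cells sit in the sciatic nerve. No Kcn gene passed the test. By the brightest probe set of each gene, the differences furthest from zero were those of Kcne1l, a regulatory subunit (0.76), and the G-protein-gated inward rectifier Kcnj9 (0.59) on the higher side, and of the BK channel subunit Kcnmb2 (-0.51) on the lower side. The median log2 difference over the 58 genes was -0.02, against 0.04 over all named genes, and single genes ranged from -0.51 to 0.76. In all, 26 genes had a positive and 32 a negative difference. By limma with Benjamini-Hochberg adjustment over 27022 probe sets, 0 of 101 Kcn probe sets had an adjusted p below 0.05, and the background was 0%. Without adjustment 1 was higher and 2 lower at p below 0.05, against 2.27% and 1.76% of all probe sets. Both N-inv arrays lay above both PBS arrays in 12 Kcn genes and below them in 13, where all named genes gave 25.2% and 12.6%. A log2 difference past 0.5 occurred in 3 of 58 genes, against 4.82%. With a median standard error of 0.20, the 95% interval of the difference lay within 1 log2 unit of zero for 51 of 58 genes, against 89.5%, so for most genes a difference of 1 log2 unit lay outside the interval, while smaller ones were not resolved.

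The comparison of N-inv with SC asks whether the place of the cells matters. Again no Kcn gene passed the test. By brightest probe set the largest Kcn difference was that of Kcnip3, at 1.64, followed on the higher side by Kcnj9 (0.82), Kcne1l (0.74), Kcnk13 (0.70) and Kcna4 (0.52). On the lower side stood Kcnq5 (-0.77), Kcnf1 (-0.74), Kcna5 (-0.71) and Kcng1 (-0.56). For Kcng1 the N-inv and SC arrays overlapped, the SE was 0.35, and the difference was -0.31 without SC replicate 2. The median was -0.00 over the 58 genes and 0.06 over all named genes, with a range from -0.77 to 1.64 and 29 genes on each side of zero. In limma 0 of 101 probe sets had an adjusted p below 0.05, with a background of 0% and a smallest adjusted p of 0.324. At unadjusted p below 0.05, 7 were higher and 4 lower, against 5.95% and 2.95%. Arrays did not overlap for 15 genes higher and 9 lower in N-inv, against 25.4% and 11.3% of all named genes. Differences past 0.5 were found in 9 of 58 genes, against 9.61%, and 47 had an interval within 1 log2 unit, against 85.8%. The count past 0.5 was 13 without SC replicate 2 and 9 without SC replicate 1, with no share over all named genes computed. The balance of signs turned on the SC arrays. Without SC replicate 2 the median was 0.09, with 38 genes higher and 20 lower, and without SC replicate 1 it was -0.13, with 24 higher and 34 lower. Of the 58 differences 39 kept their sign without SC replicate 2 and 19 changed it. Among those that kept it were 0.97 for Kcne1l, 0.58 for Kcnj9, 0.52 for Kcnab3, -0.73 for Kcnip2 and -0.98 for Kcnf1.

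SC was set against PBS to show how the controls differ from each other. By brightest probe set Kcnip3 had the lowest difference, -1.25, and Kcnq5 the highest, 0.60, and neither passed the test. The median was -0.03 over Kcn genes and -0.02 over all named genes, the range -1.25 to 0.60, and 27 genes were higher and 31 lower. In limma 0 of 101 probe sets passed, with a background of 0% and a smallest adjusted p of 0.514. At unadjusted p below 0.05, 4 were higher and 3 lower, against 2.72% and 5.16%. Arrays did not overlap for 7 genes higher and 11 lower in SC, against 13.7% and 19.8%. Of 58 genes 2 passed 0.5, against 7.86%, and 51 had an interval within 1 log2 unit, against 86.7%. The count past 0.5 was 7 without SC replicate 2 and 9 without SC replicate 1, with no share over all named genes computed. The signs again turned on the SC arrays. Without SC replicate 2 the median was -0.14, with 17 genes higher and 41 lower, and without SC replicate 1 it was 0.11, with 38 higher and 20 lower.

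N-inv was also set against PBS and SC together, since only N-inv mice had cells injected in the nerve. The median was -0.02 over Kcn genes and 0.05 over all named genes, with 26 higher and 32 lower. In limma 0 of 101 passed, with a background of 0% and a smallest adjusted p of 0.46, and at unadjusted p below 0.05 there were 5 higher and 2 lower, against 3.45% and 2.27%. Both N-inv arrays lay above the other 4 for 8 genes, against 10.8%, and below them for 3, against 3.61%. The 5 with the widest gap above were Kcne1l, Kcnip3, Kcnd1, Kcnj9 and Kcnk4, and the 3 below were Kcna5, Kcnk1 and Kcnc1. A difference past 0.5 occurred in 4 of 58, against 4.49%, and 51 intervals lay within 1 log2 unit, against 92.8%. All 4 comparisons share arrays, so their values are given side by side and are not independent.

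**Figure D2:**
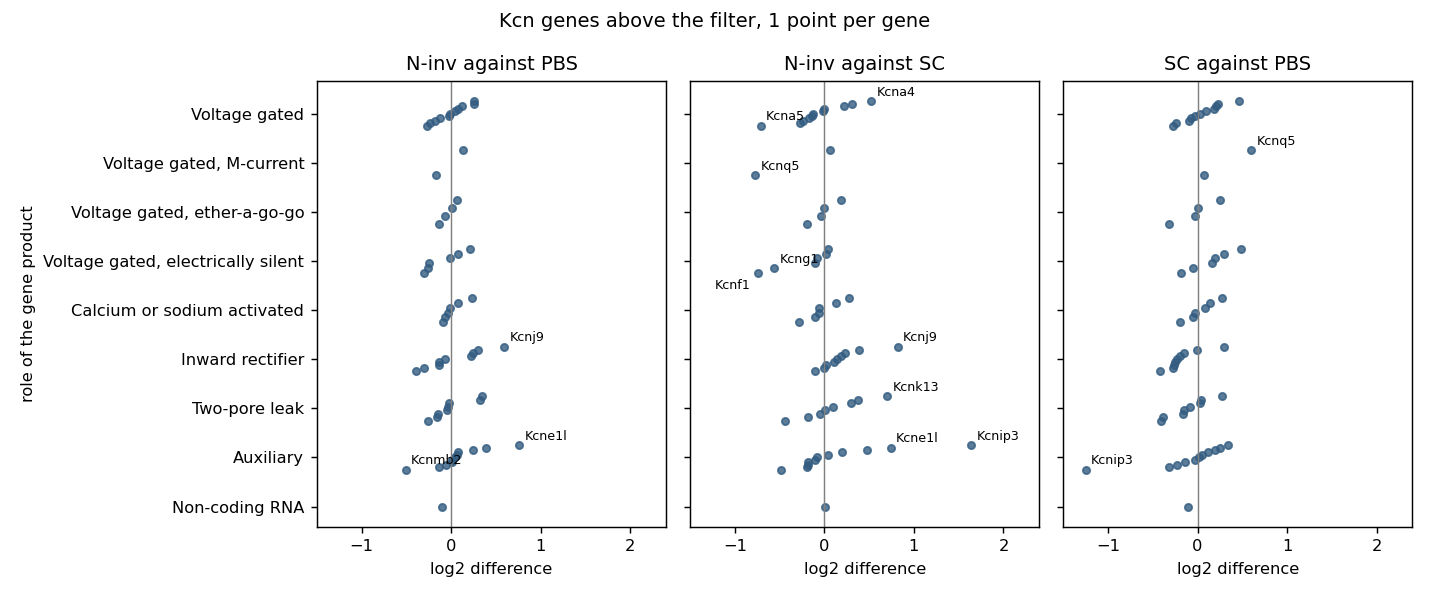
Log2 difference of each of the 58 Kcn genes above the filter, grouped by role, in 3 panels, left to right N-inv with PBS, N-inv with SC, and SC with PBS. A point is 1 gene, and genes past 0.5 are named. Most points lie within 0.5 of zero, and Kcnip3 stands at 1.64 in N-inv against SC and at -1.25 in SC against PBS.

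The voltage-gated channels of the Kcna, Kcnc and Kcnd subfamilies shape action potentials, and 11 of 13 genes lay above the filter. Kcna1 and Kcna2, which form the channels beside the nodes of myelinated axons, were nearly even across groups. Kcna1 had 21909.8 and 22369 in N-inv, 19289.7 and 30974 in SC, and 21314 and 21853 in PBS. Its N-inv against PBS log2 difference was 0.04 ± 0.24 (SE, n = 2 arrays per group), with a 95% interval of -0.54 to 0.61. Kcna2 had 17925 and 19662 in N-inv, 14559.8 and 17769 in SC, and 16292 and 18259 in PBS, a difference of 0.12 ± 0.18 from PBS. For Kcna1 the nearest N-inv and PBS arrays were 0.00 apart on the log2 scale, and for Kcna2 these groups overlapped. Neither gene showed a difference beyond the spread between arrays. Kcnc1, which lets fast-spiking neurons recover quickly between spikes, had 10161 and 9234 in N-inv, 10206 and 13399 in SC, and 11574 and 10454 in PBS. Both N-inv arrays were below the other 4, with a gap of -0.01 on the log2 scale to the nearest, and a further probe set of the gene pointed the other way, at 0.10 against PBS. Its relative Kcnc2 had 3120 and 3852 in N-inv, 3303 and 4366 in SC, and 3007 and 3596 in PBS, with all groups overlapping. Kcna6, another delayed rectifier, had 1280 and 1251 in N-inv, 1378 and 1202 in SC, and 1810 and 1288 in PBS, at -0.27 ± 0.21 from PBS. Kcnc4, a fast inactivating relative, was even, at -0.03 ± 0.16 from PBS.

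Kcna5, a delayed rectifier best known from heart and vessel muscle, had the clearest separation among these pore subunits. It had 457.0 and 365.1 in N-inv, 615.5 and 757.9 in SC, and 495.8 and 480.9 in PBS. The N-inv and SC arrays fell on opposite sides of the PBS arrays with no overlap. The log2 difference was -0.71 ± 0.19 for N-inv against SC (limma adjusted p = 0.449), -0.24 ± 0.19 for N-inv against PBS and 0.46 ± 0.19 for SC against PBS. Without SC replicate 2 the difference was -0.56 for N-inv against SC and 0.32 for SC against PBS. N-inv against PBS ranged from -0.40 to -0.09 with 1 array left out. The A-type subunits Kcnd1, Kcnd2, Kcnd3 and Kcna4 give fast currents that inactivate within a spike train. Kcnd1 had 762.8 and 739.5 in N-inv, 555.3 and 646.3 in SC, and 618.8 and 639.4 in PBS, so both N-inv arrays were above the other 4, with differences of 0.25 ± 0.16 from PBS and 0.31 ± 0.16 from SC (0.42 without SC replicate 2). On its dimmer probe set above the filter the arrays overlapped, at 0.08 from PBS and -0.09 from SC (-0.07 without SC replicate 2). Kcnd3 had 3008 and 3105 in N-inv, 3401 and 3859 in SC, and 2954 and 3227 in PBS. Its SC arrays were the highest, at -0.24 ± 0.16 for N-inv against SC and 0.23 ± 0.16 for SC against PBS, or -0.15 and 0.14 without SC replicate 2. Kcnd2 gave 4617 and 4304 in N-inv, 4633 and 5403 in SC, and 4587 and 5209 in PBS on its brightest probe set. A second probe set of Kcnd2 read 2413 and 2448 in N-inv, 1747 and 1588 in SC, and 2076 and 2412 in PBS. On that probe set N-inv against SC was 0.54 and SC against PBS was -0.42, whereas the brightest gave -0.17 and 0.03. Without SC replicate 2 these were 0.47 and -0.35 on the dimmer and -0.06 and -0.08 on the brightest. Kcna4 showed the same kind of disagreement, at 0.52 on its brightest probe set and -0.42 on the other for N-inv against SC, or 0.67 and -0.64 without SC replicate 2.

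The Kcnq subfamily includes the M-current subunits, opened near rest and closed by muscarinic receptors. Of its 3 genes 2 lay above the filter, Kcnq3 and Kcnq5, and Kcnq1, which is not an M-current subunit, lay below it. Kcnq3 read 2801 and 3144 in N-inv, 2676 and 3026 in SC, and 2598 and 2819 in PBS, and the groups overlapped, with a difference of 0.13 ± 0.17 from PBS. Kcnq5 had 330.7 and 514.6 in N-inv, 711.1 and 731.6 in SC, and 399.9 and 543.5 in PBS. Both SC arrays stood above the other 4, with -0.77 ± 0.25 for N-inv against SC (limma adjusted p = 0.487) and 0.60 ± 0.25 for SC against PBS. The values without SC replicate 2 were -0.75 and 0.58. The 2 dimmer Kcnq5 probe sets did not show it, with N-inv against SC at 0.03 and -0.03.

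Silent subunits of the Kcnf, Kcng, Kcns and Kcnv subfamilies carry no current alone and alter that of delayed rectifiers, and 6 of 9 were above the filter. Kcnf1 had 95.2 and 142.6 in N-inv, 256.3 and 175.5 in SC, and 79.1 and 247.7 in PBS, which spans the filter cutoff. The PBS arrays alone spanned nearly the whole range, and N-inv against SC was -0.74 ± 0.45. Kcns3 had 587.2 and 670.7 in N-inv, 575.4 and 663.3 in SC, and 528.5 and 551.2 in PBS, so the PBS arrays were the lowest, at differences from PBS of 0.21 ± 0.17 for N-inv and 0.19 ± 0.17 for SC (0.09 without SC replicate 2). The other Kcns3 probe set ran the other way, with 199.4 and 349.4 in N-inv, 206.6 and 182.5 in SC, and 291.1 and 289.9 in PBS. On it SC lay below PBS without overlap, at -0.52, and N-inv against PBS was -0.12. Kcns2 had 887.6 and 836.7 in N-inv, 845.1 and 979.3 in SC, and 751.1 and 877.9 in PBS. Kcng4 had 1237 and 921.2 in N-inv, 1007 and 1328 in SC, and 1540.4 and 1140 in PBS. For Kcns2 and Kcng4 the arrays of all groups overlapped. Of the ether-a-go-go channels, 4 of 6 were above the filter. Kcnh2, which carries the cardiac rapid delayed rectifier and is also found in neurons, read 2436 and 2456 in N-inv, 2361 and 2670.4 in SC, and 2648 and 2484 in PBS, and its difference from PBS was -0.07 ± 0.16. Kcnh8 had 210.1 and 254.8 in N-inv, 269.4 and 264.7 in SC, and 215.3 and 226.1 in PBS, at 0.25 ± 0.16 for SC against PBS and 0.26 without SC replicate 2. Kcnh1 had 650.8 and 807.5 in N-inv, 639.6 and 630.8 in SC, and 721.8 and 887.8 in PBS, at -0.32 ± 0.19 for SC against PBS, -0.31 without SC replicate 2 and between -0.47 and -0.18 over all arrays left out in turn. In both the SC arrays lay outside the PBS range, above it for Kcnh8 and below it for Kcnh1.

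The Kcnma, Kcnn, Kcnt and Kcnu genes were grouped by name, and 6 of 8 were above the filter. Apart from Kcnu1 they encode calcium- or sodium-activated channels, which end bursts of spikes. The BK pore gene Kcnma1 had 1587 and 1698 in N-inv, 1371 and 1639 in SC, and 1653 and 1805 in PBS. Its 5 probe sets pointed in different directions in every comparison. The sodium-activated Kcnt1 had 1445 and 1420.1 in N-inv, 1004 and 1382 in SC, and 1286 and 1159 in PBS, 0.23 ± 0.20 against PBS with no overlap. Another Kcnt1 probe set read 1219 and 1117 in N-inv, 1264 and 1822 in SC, and 980.6 and 897.5 in PBS, so there SC was the highest group, at 0.68 ± 0.21 against PBS and 0.42 without SC replicate 2. Kcnn2, a small-conductance channel behind the afterhyperpolarisation, had 1193 and 1216 in N-inv, 1131 and 1890.2 in SC, and 1171 and 1254 in PBS. Only SC replicate 2 stood apart for it. Kcnu1, known as a channel of sperm, had 405.2 and 307.8 in N-inv, 361.2 and 407.5 in SC, and 362.4 and 363.0 in PBS, with no separation of groups.

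Inward rectifiers had 9 of 14 genes above the filter, and their signs leaned to one side where SC was involved. They were higher in N-inv than in SC in 8 of 9, with a median of 0.14 against 0.06 over all named genes, and lower in SC than in PBS in 8 of 9, with a median of -0.23 against -0.02. Without SC replicate 2 these counts were 7 of 9 in each case, with medians of 0.14 and -0.28. Against PBS, N-inv was higher in 4 and lower in 5. Kcnj10, the astrocyte potassium channel, had 44276 and 46049 in N-inv, 28803 and 41377 in SC, and 38574 and 37820.1 in PBS. Both N-inv arrays were above the other 4, with log2 differences of 0.24 ± 0.21 from PBS (95% interval -0.25 to 0.74) and 0.39 ± 0.21 from SC, and the limma adjusted p was 1 and 0.637. The low value was SC replicate 1: without it the difference from SC was 0.13, and without SC replicate 2 it was 0.65. Kcnj16, its partner in astrocytes, had 1795 and 1727 in N-inv, 1167 and 1929.7 in SC, and 1552 and 1471 in PBS, at 0.22 ± 0.25 from PBS. The dimmer Kcnj16 probe set gave 0.05 from PBS and -0.16 from SC (-0.06 without SC replicate 2), with overlapping arrays.

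Astrocyte markers were read beside Kcnj10. None passed in limma. The summed intensity of 8 of 8 astrocyte markers, all above the filter and none at zero, was 209278 and 211502 in N-inv, 158001 and 195314 in SC, and 171653 and 181997 in PBS. Their median log2 difference for N-inv was 0.15 from PBS and 0.19 from SC, with 7 of 8 higher in each case. Gfap, the reactive astrocyte filament, had 20479.4 and 19174 in N-inv, 4632 and 15348 in SC, and 6653 and 7914 in PBS. Slc1a3, a glutamate transporter, was on the other side, at -0.29 ± 0.21 from PBS. Their part in the Kcnj10 and Kcnj16 values was not tested.

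The G-protein-gated inward rectifiers Kcnj3, Kcnj6 and Kcnj9 are opened by opioid and GABA-B receptors and quiet dorsal horn neurons. Kcnj9 had 1455 and 2403 in N-inv, 1239 and 880.3 in SC, and 1152 and 1321 in PBS. Both N-inv arrays were above the other 4, at 0.59 ± 0.28 from PBS and 0.82 ± 0.28 from SC (limma adjusted p = 1 and 0.496). The value rests mostly on N-inv replicate 2: without it the difference from PBS was 0.23, and without N-inv replicate 1 it was 0.95. The other Kcnj9 probe set gave 407.4 and 236.9 in N-inv, 235.4 and 161.4 in SC, and 249.8 and 347.1 in PBS, a difference of 0.07 from PBS. From SC its difference was 0.61 ± 0.31, with a gap of 0.01 between the nearest arrays, and 0.37 without SC replicate 2. Kcnj3 ran the other way, with 1552 and 1513 in N-inv, 1488 and 1818 in SC, and 1829 and 1963 in PBS, at -0.30 ± 0.17 from PBS with no overlap. Kcnj6 had 222.3 and 249.1 in N-inv, 211.7 and 219.9 in SC, and 255.9 and 269.8 in PBS, at -0.14 ± 0.15 for N-inv against PBS and -0.26 ± 0.15 for SC against PBS (-0.28 without SC replicate 2). The PBS arrays were thus the highest for both Kcnj3 and Kcnj6 by brightest probe set. The dimmer Kcnj3 probe sets above the filter did not show this. Their arrays overlapped, with N-inv against PBS at 0.09 and -0.26. Kcnj11, a KATP pore subunit, had 819.1 and 849.9 in N-inv, 776.8 and 737.7 in SC, and 971.5 and 871.0 in PBS, so every N-inv and SC array lay below both PBS arrays. Its difference from PBS was -0.14 ± 0.16 in N-inv, with a gap of only -0.03 between the nearest arrays. In SC it was -0.27 ± 0.16, or -0.24 without SC replicate 2. The other KATP pore gene, Kcnj8, typical of pericytes, had 366.9 and 358.8 in N-inv, 497.2 and 261.9 in SC, and 331.3 and 251.7 in PBS, at 0.30 ± 0.30 from PBS.

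The 2-pore leak channels had 8 of 12 genes above the filter. Kcnk1 had 5445 and 5603 in N-inv, 5655 and 9891 in SC, and 6192 and 6176 in PBS. SC replicate 2 was high, and N-inv against SC was -0.44 ± 0.27 with it and -0.03 without it. The dimmer Kcnk1 probe set had 445.2 and 647.6 in N-inv, 724.5 and 857.4 in SC, and 584.4 and 609.4 in PBS. There both SC arrays were above the other 4, at -0.53 ± 0.22 for N-inv against SC and -0.41 without SC replicate 2. The mechano-sensitive Kcnk2 had 1534 and 1815 in N-inv, 1757 and 2040.0 in SC, and 1937 and 2076 in PBS, at -0.26 ± 0.17 from PBS and between -0.38 and -0.14 with 1 array left out. Its relative Kcnk4 had 288.0 and 303.8 in N-inv, 211.5 and 260.7 in SC, and 196.8 and 265.0 in PBS, and both N-inv arrays were above the other 4. Its difference from PBS was 0.34 ± 0.20, and 0.15 to 0.53 with 1 array left out. Kcnk13, a leak channel of microglia, had 298.5 and 588.2 in N-inv, 326.9 and 187.1 in SC, and 370.9 and 296.4 in PBS, with overlapping arrays, a difference of 0.32 ± 0.37 from PBS and one of 0.70 ± 0.37 from SC, which was 0.34 without SC replicate 2. The 10 microglia markers, 9 of them above the filter, summed to 32248 and 27585 in N-inv, 18392 and 21092 in SC, and 20087 and 20732 in PBS, with none at zero. Of these sums, Csf1r made up 21177 and 16840 in N-inv, 10690.5 and 13296.5 in SC, and 13313 and 13660 in PBS. Both N-inv arrays lay above both PBS arrays in 9 of 9, against 25.2% of all named genes, with a median of 0.76. They lay above both SC arrays in 7 of 9, against 25.4%, with a median of 0.66. None passed in limma, and the part of these markers in the Kcnk13 values was not tested.

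Auxiliary subunits had 11 of 15 genes above the filter, and by brightest probe set the widest differences of the 58 genes were among them. Kcnip3 encodes a calcium-binding protein that joins Kcnd channels, also known as DREAM, a repressor that acts on the prodynorphin gene in spinal cord. It had 874.0 and 808.0 in N-inv, 257.6 and 247.9 in SC, and 705.3 and 570.8 in PBS. The SC arrays were the low ones, far below the other 4, and both N-inv arrays were above both PBS arrays. The log2 difference was 1.64 ± 0.17 for N-inv against SC (95% interval 1.23 to 2.05, limma adjusted p = 0.324). SC against PBS was -1.25 ± 0.17 (95% interval -1.66 to -0.84, limma adjusted p = 0.514), and N-inv against PBS was 0.39 ± 0.17, or 0.24 to 0.54 with 1 array left out. Leaving out SC replicate 2 gave 1.61 and -1.22, and leaving out SC replicate 1 gave 1.66 and -1.27. The dimmer Kcnip3 probe set read 203.2 and 212.4 in N-inv, 185.3 and 132.6 in SC, and 239.8 and 193.1 in PBS. On it the differences were smaller, 0.35 for N-inv against SC and -0.40 for SC against PBS, or 0.15 and -0.19 without SC replicate 2.

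The other Kcnip genes did not share this pattern by value. Kcnip2 had 556.6 and 706.9 in N-inv, 1056 and 743.5 in SC, and 650.4 and 739.1 in PBS, at -0.48 ± 0.23 for N-inv against SC. Kcnip4 had 2630.5 and 2928 in N-inv, 2853 and 3465 in SC, and 2478 and 2829 in PBS, at 0.25 ± 0.18 for SC against PBS, 0.11 without SC replicate 2 and 0.38 without SC replicate 1. Whether these genes differed from Kcnip3 in response was not tested.

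Kcne1l, a single-pass subunit related to the Kcne family, had 335.8 and 316.3 in N-inv, 154.4 and 219.1 in SC, and 215.3 and 152.1 in PBS. Both N-inv arrays were above the other 4, at 0.76 ± 0.23 from PBS (95% interval 0.22 to 1.31) and 0.74 ± 0.23 from SC, with limma adjusted p of 1 and 0.464. Its SC and PBS arrays lay close to the filter. Kcnab3, a cytoplasmic beta subunit of Kcna channels, had 548.7 and 664.1 in N-inv, 413.9 and 439.4 in SC, and 488.7 and 524.3 in PBS. N-inv and SC lay on opposite sides of PBS, and N-inv against SC was 0.48 ± 0.17. A further Kcnab3 probe set gave -0.08 for the same comparison. Kcnmb2, which makes BK channels inactivate, had 387.1 and 344.5 in N-inv, 378.9 and 462.2 in SC, and 553.2 and 506.6 in PBS, so the PBS arrays were the highest, at -0.51 ± 0.17 for N-inv against PBS. Its dimmer probe set gave -0.10. Kcnmb4, the neuronal BK subunit, had 1025 and 1134 in N-inv, 901.6 and 970.5 in SC, and 1010.1 and 1063 in PBS, so the SC arrays were the lowest, at -0.14 ± 0.16 for SC against PBS and -0.20 without SC replicate 2. Kcnab2 had 7630 and 7249 in N-inv, 6160 and 8531 in SC, and 7665 and 7153 in PBS, and Kcne4 had 346.3 and 285.1 in N-inv, 299.9 and 371.8 in SC, and 443.0 and 206.6 in PBS. On these probe sets neither gene separated the groups. The dimmer Kcnab2 probe set had 140.2 and 60.6 in N-inv, 192.4 and 291.0 in SC, and 181.6 and 212.3 in PBS. Both N-inv arrays were below the other 4, at -0.89 ± 0.34 from PBS and -1.14 ± 0.34 from SC, the lowest values of any Kcn probe set above the filter in these comparisons, and neither passed in limma. The N-inv mean there lay below the filter cutoff, and with 1 array left out the values ran from -1.37 to -0.42 against PBS and from -1.61 to -0.66 against SC.

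Among the non-coding members, only Kcnq1ot1, the imprinted antisense RNA at Kcnq1, lay above the filter. It had 1968 and 2101 in N-inv, 2322 and 1756 in SC, and 1972 and 2398 in PBS, with overlapping arrays. The dimmest of its 5 probe sets above the filter had 234.9 and 285.5 in N-inv, 123.4 and 12.8 in SC, and 219.8 and 432.9 in PBS. The SC arrays were the lowest there, at 1.91 ± 0.62 for N-inv against SC and -2.15 ± 0.62 for SC against PBS, and at 0.93 and -1.17 without SC replicate 2. The SC mean of 68.1 lay below the filter cutoff, and the brightest probe set gave 0.01 for that comparison. Strand was not given for the probe sets, so sense and antisense signal at this locus is not separated here.

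Probe sets of one gene often disagreed. Of 28 genes with 2 or more probe sets above the filter, the signs of the difference were mixed in 17 for N-inv against PBS, in 18 for N-inv against SC and in 16 for SC against PBS. The widest spread between probe sets of a gene was 0.90 for N-inv against PBS, 2.20 for N-inv against SC and 2.21 for SC against PBS. The values above therefore belong to probe sets first and to genes second.

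**Figure D3:**
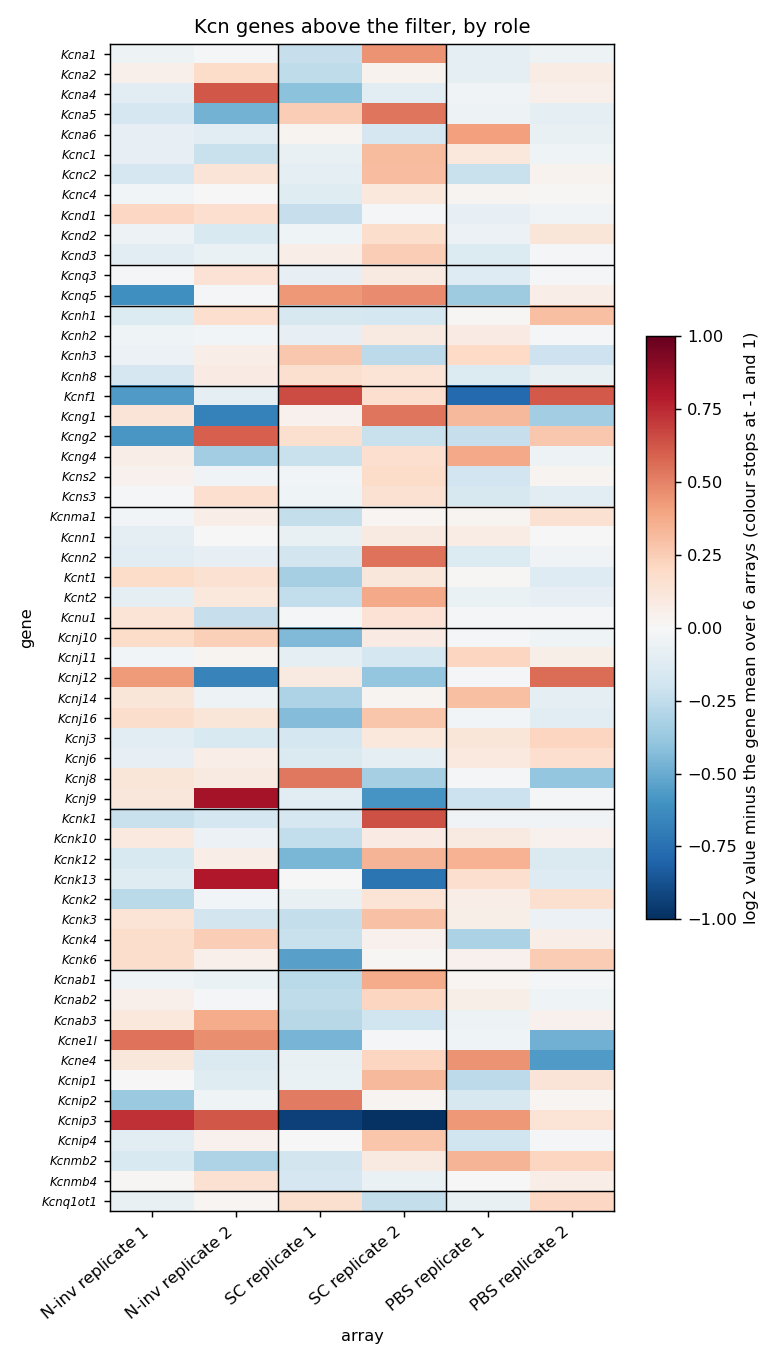
Deviation of each Kcn gene on each array from its mean over the 6 arrays (log2 scale), arrays in the order N-inv, SC, PBS and genes by role; red is above and blue below the mean, and the colour stops at 1 either way. SC replicate 1 holds the lowest value for 23 of 58 genes and SC replicate 2 the highest for 22.

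The other 25 Kcn genes, with 35 probe sets, lay below the filter on every probe set and were not tested in the main comparison. Their array values ranged from 1.8 to 183.9. They were Kcna3, Kcna7, Kcne1, Kcne2, Kcne3, Kcnh5, Kcnh7, Kcnj1, Kcnj2, Kcnj4, Kcnj5, Kcnj15, Kcnk5, Kcnk7, Kcnk15, Kcnk16, Kcnmb1, Kcnmb4os1, Kcnmb4os2, Kcnn3, Kcnn4, Kcnq1, Kcns1, Kcnv1 and Kcnv2. A low signal is not a sign of absence, since probe sets differ in their yield. Of the 101 probe sets that passed, 5 had a group mean below 155.2, among them those of Kcnf1 and Kcng1. For Kcnf1 the means were 118.9 in N-inv, 215.9 in SC and 163.4 in PBS, and for Kcng1 they were 152.6 in N-inv, 231.6 in SC and 185.8 in PBS.

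Genes that work with these channels were read as a list of 39, of which 30 lay above the filter. It held proteins that cluster Kcna channels at the axon, partners of A-type and delayed rectifier channels, sulfonylurea receptors, and the pumps and transporters that clear potassium. Of the 30, 0 passed the limma test in any comparison. N-inv was higher than PBS in 21 and lower in 9, with a median of 0.06. Over all 12626 named genes 7571 were higher, with a median of 0.04. N-inv was higher than SC in 23 and lower in 7, with a median of 0.12, but without SC replicate 1 it was higher in 9 and lower in 21. With all arrays, 7638 of the 12626 named genes were higher in N-inv than in SC, with a median of 0.06. Atp1b2, the astrocyte subunit of the sodium pump, had 35475 and 39061 in N-inv, 26790.0 and 28214 in SC, and 30304 and 32025 in PBS. Both N-inv arrays were the highest, at 0.26 ± 0.16 from PBS and 0.44 ± 0.16 from SC. Fxyd1, which modulates the same pump, had 3007 and 2990.4 in N-inv, 2541 and 1405 in SC, and 2322 and 2442 in PBS, at 0.33 ± 0.28 from PBS. Slc12a7, a potassium-chloride cotransporter, had 457.2 and 494.6 in N-inv, 492.5 and 485.5 in SC, and 354.5 and 393.5 in PBS, so every N-inv and SC array lay above both PBS arrays. The differences from PBS were 0.33 ± 0.16 in N-inv and 0.37 ± 0.16 in SC. Amigo1, a membrane partner of delayed rectifiers, had 1082 and 1028.5 in N-inv, 887.6 and 1304.5 in SC, and 864.0 and 848.9 in PBS. The secreted Lgi1, which binds Kcna complexes, differed from PBS by 0.14 ± 0.17 in N-inv, its receptor Adam23 by -0.22 ± 0.20 and the scaffold Epb41l3 by 0.05 ± 0.17. The endoplasmic reticulum anchors Vapa and Vapb were at 0.13 ± 0.20 and -0.12 ± 0.15, and the sulfonylurea receptors Abcc8 and Abcc9 at -0.02 ± 0.26 and 0.07 ± 0.15. All 12 clustering partners of Kcna channels had a positive N-inv against SC difference, with a median of 0.12 and a lowest value of 0.01, for Epb41l3. Without SC replicate 2 the count was 12 of 12, but without SC replicate 1 it was 3 of 12. Against PBS 7 of 12 were positive.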

How the data were processed

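RNA was isolated with TRIzol from L1 cord, and 100 ng per sample went through the 2-cycle Affymetrix labelling of cRNA with biotin, per the labels' protocols. Each array's deposited column holds linear intensities of probe sets; how probes were summarised is not stated by the labels or file headers. The number of arrays limits the precision. The table held 45101 probe sets, of which 64 controls were left out. Of the other 45037, the platform annotation gave 1 symbol for 34945, several for 932 and none for 9160, and probe sets with several were not named.

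Arrays, with medians of 241.7 to 279.2, were scaled to the same median, 255.8. Values were analysed as log2(intensity + 25.6), a scale that understates the change of dim genes. As deposited, the medians differed by up to 0.21 on the log2 scale. Probe sets with a mean above the 40th percentile (155.2) were kept, 27022 in all, for 12626 named genes. Groups were compared with limma 3.58.1 in R 4.3.3 (lmFit, eBayes), two-sided, in 1 model over 6 arrays (residual degrees of freedom 3, prior 3.59). P-values were adjusted by Benjamini-Hochberg across the 27022, and the threshold was 0.05. The script was tested on simulated data.

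The members, gene lists and tests were chosen with earlier results of these data known. Genes named per comparison were up to 8 per direction with the widest gap between the nearest arrays of the groups (5 for N-inv against both), the brightest of each subfamily, Kcnj10, Kcnip3, members of role lists, and up to 3 partners per list; dimmer probe sets were named after their values were seen. Scaling, pseudocount, filter, variance model, replicate block and leaving out each array were varied.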

Additional observations from a re-analysis of the deposited data

Results flagged for a closer look

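In 3 Kcn genes every N-inv array lay on one side of both PBS arrays and every SC array on the other. The N-inv against SC difference was 1.64 for Kcnip3, 0.48 for Kcnab3 and -0.71 for Kcna5 on the log2 scale, and none passed in limma, with adjusted p of 0.324, 0.504 and 0.449. These are 5.17% of the 58 Kcn genes, and the same arrangement occurred in 557 of 12626 named genes, or 4.41%. The N-inv and SC differences share the PBS arrays.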

How the results depend on the processing

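No Kcn probe set was called under any alternative run. Over 55 gene differences named by rule, all 805 alternative values kept their sign. The 55 had been picked for arrays that did not overlap, so leaving out 1 array could not change a sign. That part of the agreement therefore says nothing about stability. The lowest limma adjusted p was 0.0595, for Kcnip3 in N-inv against SC with an intensity trend in the variance. With the filter at the 60th percentile it was 0.0692. Leaving out each array gave medians over the 58 Kcn genes from -0.03 to 0.04 for N-inv against PBS, from -0.13 to 0.09 for N-inv against SC, from -0.14 to 0.11 for SC against PBS and from -0.07 to 0.04 for N-inv against both; the SD of the median between replicate arrays was 0.08, and the cause of the shift with the SC arrays was not tested. Over all probe sets, 10 were called in SC against PBS without SC replicate 1, against 0 with it. Limiting the fit to the groups compared changes nothing for N-inv against both, which uses every array. Replicate numbers did not pair the samples: deviations of same-numbered arrays correlated at -0.032 for N-inv with SC, 0.01 for N-inv with PBS and 0.037 for SC with PBS. With the replicate block, 0 Kcn probe sets were called, and the medians were -0.02, -0.00, -0.03 and -0.02 in the 4 comparisons.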
